A study of Mus musculus with 4 samples.

Results

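The 44 genes described here encode proteins that copy DNA or divide the cell. They were taken by symbol from count files of mouse pancreatic duct cells and stand among 52535 gene models, of which 13990 were abundant enough to test. All 44 symbols were found and all 44 were tested. By their roles, 17 act in DNA replication and 27 in mitosis, and the 2 sets are described apart. RNA sequencing was done on 2 libraries labelled Lats1/2 KO (KO 1 and KO 2) and 2 wild-type libraries (WT 1 and WT 2), all from C57BL/6 pancreas with the cell type given as ductal. The KO genotype is Lats1fl/fl, Lats2fl/fl with Sox9-CreER, a tamoxifen-activated Cre recombinase driven by the duct transcription factor gene Sox9, so Lats1 and Lats2 are removed only where Sox9 is or was active and only in cells that recombine. The wild-type libraries carry no allele named in the labels. The sources used here give no age, no time after tamoxifen and no account of how duct cells were obtained. Libraries labelled as lacking both LATS kinases, which restrain the co-activators YAP and TAZ, were compared with wild-type libraries for genes of the dividing cell. The groups also differed in markers of several cell types, as given below.

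Most adult duct cells rest outside the cell cycle. A cell that enters it loads the MCM helicase onto replication origins, fires those origins in S phase with fresh deoxynucleotides, and then builds the spindle under cyclin B and CDK1. Replication genes are classically switched on by E2F factors at the G1/S border, and mitotic genes later by the MuvB complex with MYBL2 and FOXM1, so the RNA of these genes is widely used to score how many cells are cycling. In a bulk library, fewer cycling cells, less of each RNA per cycling cell and a changed mix of cell types cannot be told apart.

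Libraries held 5082636 and 5925601 counts in KO 1 and KO 2 and 3566387 and 4735183 in WT 1 and WT 2. Of the targeted genes, Lats1 and Lats2, none was called lower. Lats1 stood at 70.0 and 79.2 CPM (read counts brought to a common library size with TMM factors) in KO 1 and KO 2, against 50.8 and 65.6 CPM in WT 1 and WT 2. Lats2 stood at 163 and 121 CPM in KO 1 and KO 2, against 114 and 102 CPM in WT 1 and WT 2. Counts over whole gene models do not check a deletion of some exons, and the groups keep their label names here.

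Markers of several cell types were present in every library and differed between the groups. Duct markers rose in 12 of 22 and fell in 2, with summed levels of 15827 and 16144 CPM in KO 1 and KO 2, against 2750 and 3270 CPM in WT 1 and WT 2. Acinar markers were called lower in 3 of 19 tested, with a median log2 change (KO minus WT) of -5.65. All 19 had both KO-labelled libraries below both WT libraries, against 36.8% of all tested genes. The 20 summed to 241 and 6624 CPM in KO 1 and KO 2, against 67346 and 121049 CPM in WT 1 and WT 2. In sums not scaled by gene length, acinar markers thus stood above duct markers in both wild-type libraries labelled ductal. All 16 T and NK cell markers fell, with 107 and 60.2 CPM in KO 1 and KO 2, against 1780 and 1860 CPM in WT 1 and WT 2. All 14 B and plasma cell markers fell, with 917 and 336 CPM in KO 1 and KO 2, against 5680 and 8578 CPM in WT 1 and WT 2. Both lymphocyte lists were thus lower in each KO-labelled library than in either WT library, while the macrophage and fibroblast lists showed the opposite order. Macrophage and monocyte markers rose in 18 of 21 and fell in 2, with 10759 and 7412 CPM in KO 1 and KO 2, against 1263 and 1181 CPM in WT 1 and WT 2. Fibroblast and stellate cell markers rose in 15 of 19 and fell in 1, with 30568 and 21925 CPM in KO 1 and KO 2, against 4713 and 3981 CPM in WT 1 and WT 2. Islet markers fell in 5 of 10 tested, smooth muscle markers in 10 of 10 and endothelial markers in 10 of 14. Each marker had counts in at least 1 library of each group, except the myeloid receptor gene Clec4d, which had 0 counts in both WT libraries.

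None of the 44 genes passed the test as higher in the KO-labelled libraries, and 9 passed as lower (edgeR's quasi-likelihood test, Benjamini-Hochberg adjusted p under 0.05). These 9 are 20.5% of the members, while 20.2% of all tested genes were lower by the same rule, so the share of falls was close to the background. Higher calls were 0 of 44, where 22.0% of all tested genes were called higher. At an unadjusted p under 0.05, 2 members were higher (Rrm1 and Cdk1) and 11 lower, where 26.2% and 24.5% of all tested genes were. DESeq2 called 0 members higher and 6 lower, where it called 15.8% and 13.0% of its 16529 tested genes. The members' changes lay in a narrow range. Log2 changes (KO minus WT) ran from -1.37 to 0.71, and 4 of 44 (9.09%) were beyond 2-fold in either direction, against 35.1% of all tested genes. The tested genes were not matched to the members for abundance, and 43 of 44 members had at least 10 counts in every library.

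Of 17 replication members, 5 fell (29.4%), the median log2 change was -0.45, and 11 had both KO-labelled libraries below both WT libraries (64.7%, against 36.8% of all tested genes). Of 27 mitosis members, 4 fell (14.8%), the median was -0.14, and 8 had both KO-labelled libraries below both WT libraries (29.6%). Both KO-labelled libraries stood above both WT libraries in 3 replication and 5 mitosis members, together 18.2% of the 44, against 37.4% of all tested genes. The median of all tested genes was -0.01. Upper quartile scaling moved that median to -0.20, raised the replication falls to 7 and the mitosis falls to 5, and lowered the arm medians to -0.65 and -0.34. The same scaling changed the split of all calls, with 39.4% higher among called genes in place of 52.1%. Whether the 2 arms differ was not tested.

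**Figure D1:**
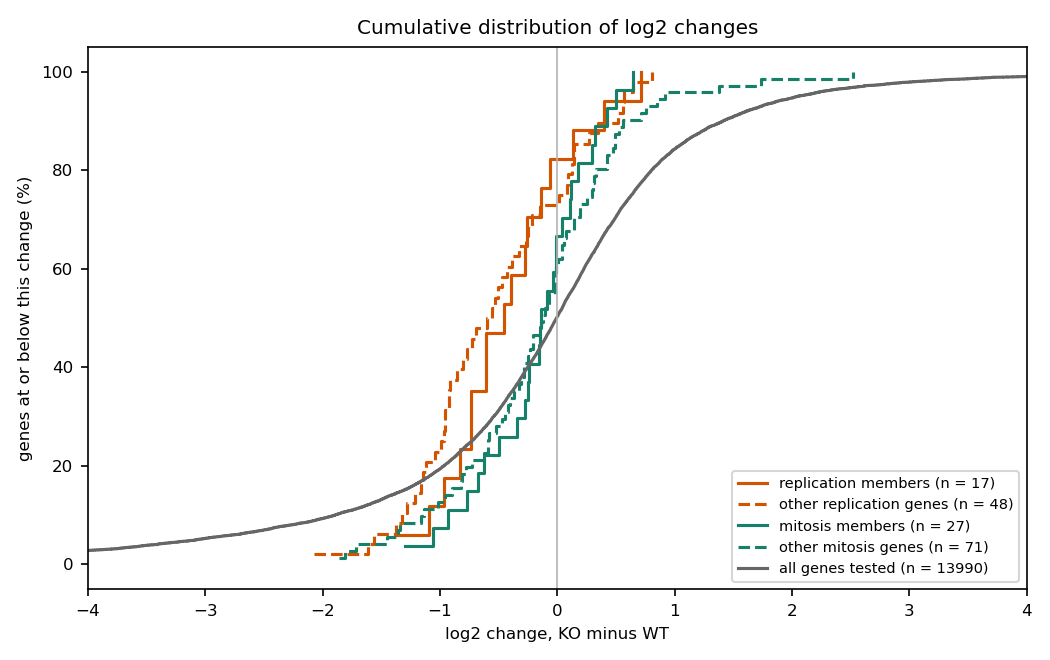
Cumulative share of genes (y axis, percent) at or below each log2 change, KO minus WT (x axis), for the 17 replication members, 48 other replication genes, 27 mitosis members, 71 other mitosis genes and all 13990 tested genes. Member curves rise steeply between -1.37 and 0.71, while the curve of all genes has long tails on both sides; 82.4% of replication members and 66.7% of mitosis members lie below 0, against 50.3% of all genes.

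The summed level of the 17 replication members was 590 and 589 CPM in KO 1 and KO 2, against 742 and 821 CPM in WT 1 and WT 2. The summed level of the 27 mitosis members was 660 and 675 CPM in KO 1 and KO 2, against 802 and 836 CPM in WT 1 and WT 2. In both arms the KO-labelled libraries lay close together and below both WT libraries. The KO over WT ratios were 0.754 for replication and 0.815 for mitosis. Genes with many counts weigh most in these sums: in the mitosis arm Mki67 and Top2a together gave 324 and 286 CPM in KO 1 and KO 2, and 415 and 409 CPM in WT 1 and WT 2. In the replication arm the 6 MCM subunits gave 333 and 329 CPM in KO 1 and KO 2. In WT 1 and WT 2 they gave 481 and 534 CPM. Ratios were 0.832 for origin licensing, 0.796 for synthesis and chromatin assembly and 1.024 for helicase activation. Deoxynucleotide supply stood higher in KO 1 and KO 2, at 111 and 105 CPM. Its WT 1 and WT 2 sums were 87.9 and 92.4 CPM. The ratio of the replication arm thus does not describe each of its roles. The marker lists of the cell types moved more than the members, by KO over WT ratios of 0.0364 to 0.534 or of 5.31 to 7.44. Their part in the members' changes was not tested. TMM factors and library sizes were also computed without acinar, lymphocyte and macrophage markers, as a check of scaling alone. The same 5 replication and 4 mitosis members then fell. Member counts still came from the same mix of cells, so this check cannot address that mix.

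**Figure D2:**
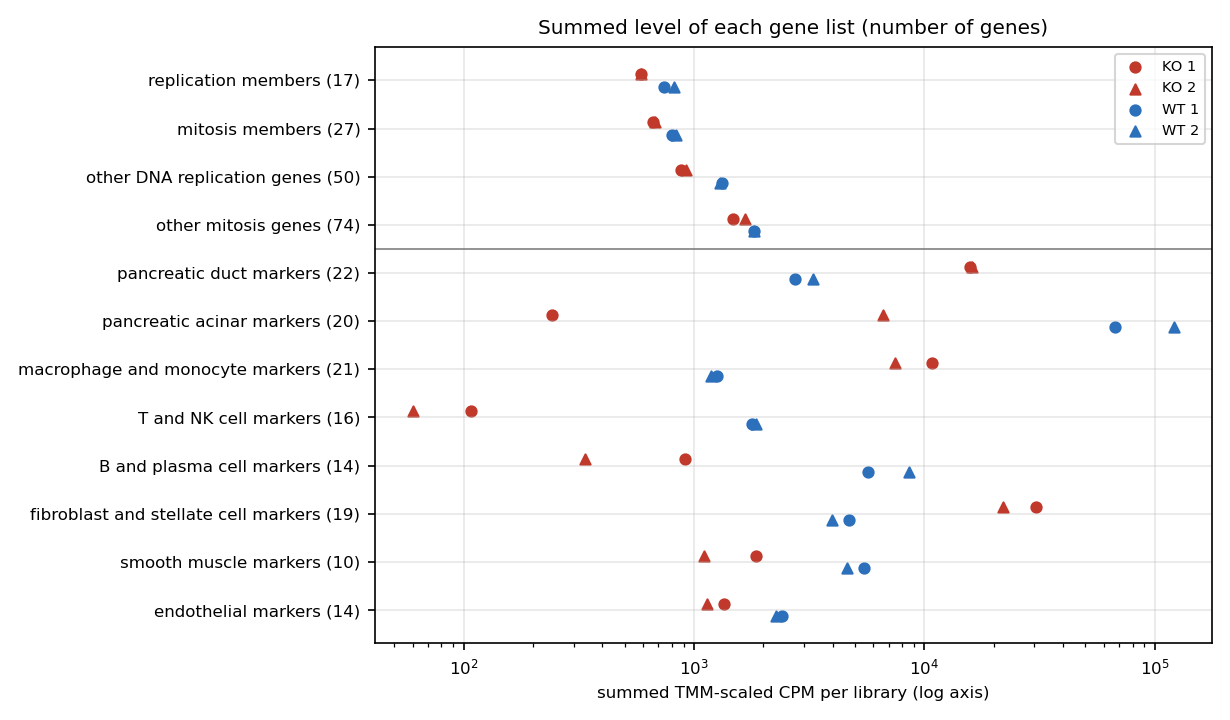
Summed TMM-scaled CPM per library (x axis, log scale) of the 2 member arms, the 2 lists of other cell cycle genes and 8 lists of cell type markers, for KO 1, KO 2, WT 1 and WT 2 (number of genes in parentheses). The cell cycle lists, at KO over WT ratios of 0.685 to 0.859, differ less between groups than the cell type lists. Lymphocyte, acinar, duct, macrophage and fibroblast lists are far apart.

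All 6 MCM helicase subunits were lower in both KO-labelled libraries than in both WT libraries, an order found in 36.8% of all tested genes. Mcm2 to Mcm7 encode the 6 subunits of the ring that unwinds DNA at the fork. Of them 4 fell (66.7% of the group, against 20.2% of all tested genes). Mcm5 (mm10, chromosome 8, 75109569 to 75128439) had 34.4 and 28.0 CPM in KO 1 and KO 2, against 58.5 and 74.4 CPM in WT 1 and WT 2, a log2 change of -1.09 ± 0.21 SE (edgeR adjusted p = 0.00402). It passed under all 11 alternative settings, with log2 changes of -1.29 to -0.91. Mcm2 (chromosome 6, 88883474 to 88898780) had 51.3 and 40.3 CPM in KO 1 and KO 2, against 72.0 and 90.4 CPM in WT 1 and WT 2 (log2 change -0.83 ± 0.21 SE, edgeR adjusted p = 0.0121). The lowest WT value of Mcm2 was well above the highest KO-labelled value.

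Mcm3 (chromosome 1, 20802968 to 20820312) had 71.8 and 63.0 CPM in KO 1 and KO 2, against 106 and 118 CPM in WT 1 and WT 2 (log2 change -0.73 ± 0.17 SE, edgeR adjusted p = 0.00902). Mcm4 (chromosome 16, 15623897 to 15637400) had 54.7 and 51.2 CPM in KO 1 and KO 2, against 81.1 and 80.5 CPM in WT 1 and WT 2 (log2 change -0.61 ± 0.17 SE, edgeR adjusted p = 0.0194). Leaving out 1 library left 1 in its group, and not all of the Mcm2, Mcm3 and Mcm4 calls were then kept. Fewer of all genes were also called lower in each such fit. The log2 changes ran over -1.01 to -0.63 for Mcm2, -0.83 to -0.61 for Mcm3 and -0.65 to -0.53 for Mcm4. Mcm2 did not pass without KO 2 or WT 2 (edgeR adjusted p = 0.0781 and 0.0822), nor did Mcm3 (0.0535 and 0.0593). Mcm4 did not pass without KO 2, WT 1 or WT 2 (edgeR adjusted p = 0.0913, 0.0799 and 0.0765) or with DESeq2 (0.0751). Without KO 2, and also without WT 2, Mcm5 alone remained of the 5 replication falls.

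The remaining MCM subunits did not pass. Mcm7 had 44.1 and 47.3 CPM in KO 1 and KO 2, against 58.8 and 66.3 CPM in WT 1 and WT 2, and Mcm6 had 76.7 and 98.9 CPM in KO 1 and KO 2, against 106 and 104 CPM in WT 1 and WT 2. Their log2 changes were -0.45 (95% interval -0.87 to -0.04, edgeR adjusted p = 0.0745) and -0.26 (-0.67 to 0.15, edgeR adjusted p = 0.284). The summed level of the 6 subunits was 333 and 329 CPM in KO 1 and KO 2, against 481 and 534 CPM in WT 1 and WT 2, a ratio of 0.651.

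Cdc6 and Cdt1 load the MCM ring onto origins. Cdc6 had the lowest log2 change of any member, -1.37 ± 0.52 SE (95% interval -2.55 to -0.19), and did not pass (edgeR adjusted p = 0.0624). Its counts were few, 12 and 17 in KO 1 and KO 2, against 15 and 41 in WT 1 and WT 2, and its levels were 2.41 and 2.75 CPM in KO 1 and KO 2, against 4.12 and 9.21 CPM in WT 1 and WT 2. It passed with upper quartile scaling (log2 change -1.57, edgeR adjusted p = 0.0373) and without WT 1 (log2 change -1.81, edgeR adjusted p = 0.0233), where the wild type is WT 2 alone, and its change was -0.66 without WT 2. Cdt1 had 19.7 and 26.5 CPM in KO 1 and KO 2, against 26.9 and 21.6 CPM in WT 1 and WT 2, and the groups overlapped. Cdc45 and Gins2, which turn the loaded ring into an active helicase, lay on opposite sides. Cdc45 had 4.02 and 7.45 CPM in KO 1 and KO 2, against 9.89 and 7.87 CPM in WT 1 and WT 2. Gins2 had 9.66 and 8.26 CPM in KO 1 and KO 2, against 5.77 and 5.17 CPM in WT 1 and WT 2, with the highest log2 change of any member, 0.71 (95% interval -0.10 to 1.52, edgeR adjusted p = 0.143). Gins2 shares 2758 exon bases with the tested gene Gse1 on the opposite strand, which could give it reads if counting ignored strand.

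Of the genes for DNA synthesis and chromatin assembly, 1 of 4 fell (25%, against 20.2% of all tested genes). Pola1 (chromosome X, 93304767 to 93632155), the catalytic subunit of the priming polymerase, had 15.1 and 12.8 CPM in KO 1 and KO 2, against 21.4 and 32.8 CPM in WT 1 and WT 2 (log2 change -0.97 ± 0.28 SE, edgeR adjusted p = 0.0245). WT 2 was the highest of the 4 libraries, and without it the change was -0.62 (edgeR adjusted p = 0.216). Pola1 also did not pass without KO 1 or KO 2 (edgeR adjusted p = 0.0649 and 0.128) or with DESeq2 (0.0894). Prim1, the primase subunit that works beside it, had 5.03 and 8.09 CPM in KO 1 and KO 2, against 9.62 and 12.4 CPM in WT 1 and WT 2 (edgeR adjusted p = 0.143). Pcna, the sliding clamp and a common proliferation marker, had 77.9 and 76.6 CPM in KO 1 and KO 2, against 76.7 and 93.7 CPM in WT 1 and WT 2, so the groups overlapped. Its 95% interval was -0.54 to 0.26 on the log2 scale. Chaf1a, a histone chaperone subunit, had 11.9 and 12.3 CPM in KO 1 and KO 2, against 18.1 and 11.2 CPM in WT 1 and WT 2.

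None of the 3 genes that supply deoxynucleotides passed. Rrm1, the large subunit of ribonucleotide reductase, had 88.7 and 80.6 CPM in KO 1 and KO 2, against 61.6 and 67.2 CPM in WT 1 and WT 2 (log2 change 0.39, 95% interval 0.01 to 0.78, edgeR adjusted p = 0.0936). Rrm2, the small subunit whose level limits the enzyme in S phase, had 10.1 and 10.8 CPM in KO 1 and KO 2, against 14.6 and 13.0 CPM in WT 1 and WT 2 (log2 change -0.40, edgeR adjusted p = 0.303). Tyms, thymidylate synthase, had 12.5 and 13.8 CPM in KO 1 and KO 2, against 11.8 and 12.1 CPM in WT 1 and WT 2. In Rrm1 and Tyms both KO-labelled libraries were above both WT libraries, and in Rrm2 below.

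**Figure D3:**
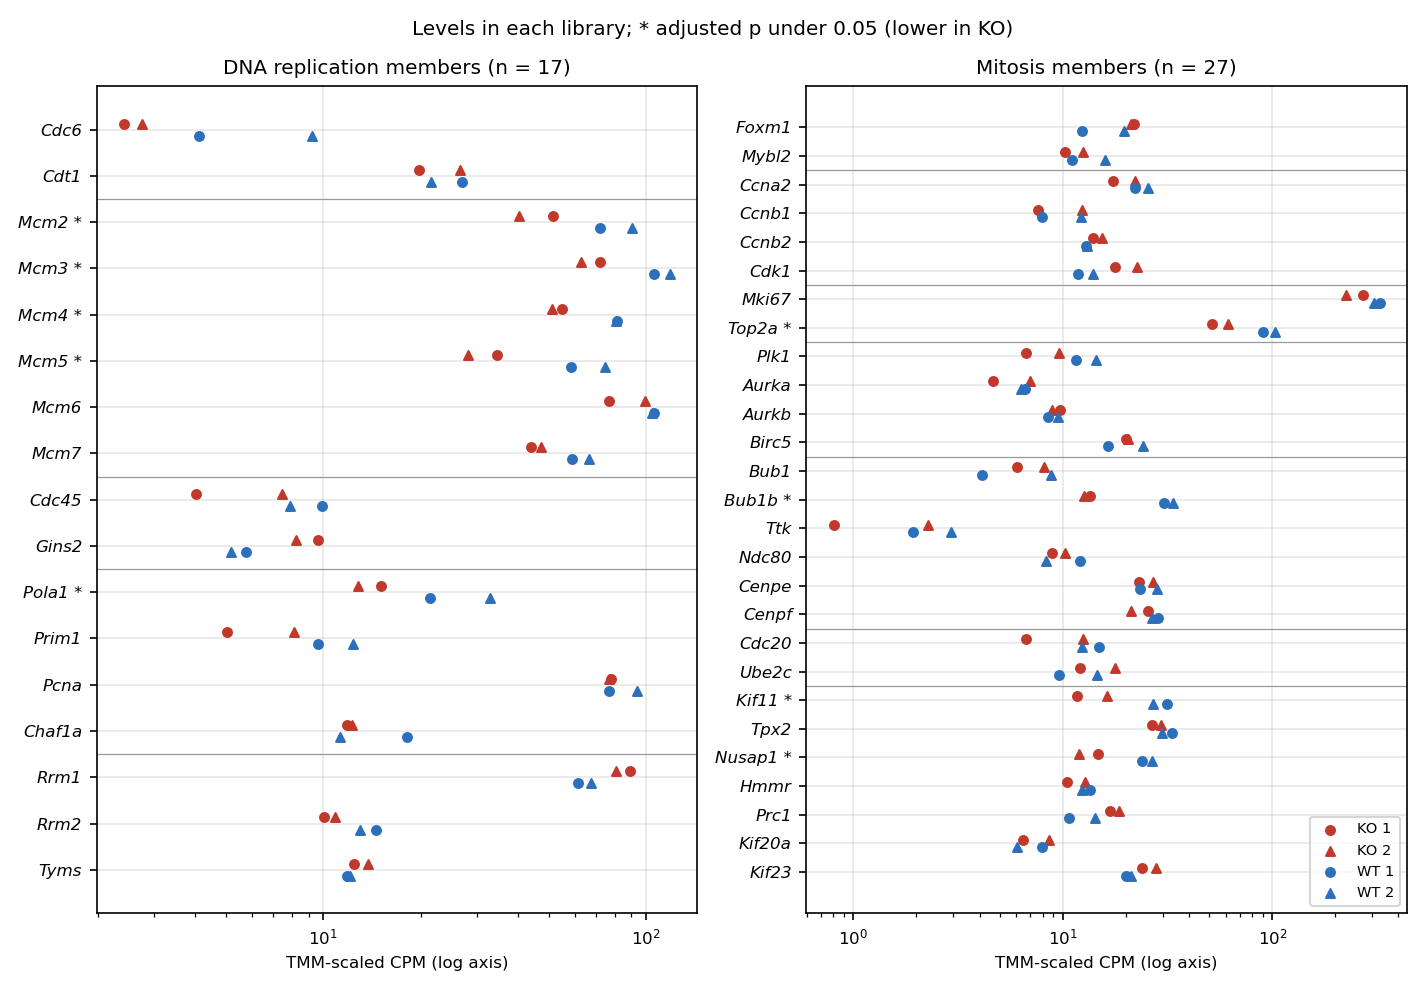
TMM-scaled CPM (x axis, log scale) of each replication member (left) and mitosis member (right) in KO 1, KO 2, WT 1 and WT 2; lines separate the roles and asterisks mark the 9 genes that passed. The 6 MCM genes show both KO-labelled points left of both WT points, while Cdk1, Rrm1 and Gins2 show the opposite order.

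Among mitosis members, the transcription factors and the cyclin-CDK engine did not pass. Foxm1, which drives mitotic genes, had 21.9 and 21.2 CPM in KO 1 and KO 2, against 12.4 and 19.6 CPM in WT 1 and WT 2 (log2 change 0.43, 95% interval -0.22 to 1.08, edgeR adjusted p = 0.261). Mybl2 had 10.3 and 12.5 CPM in KO 1 and KO 2, against 11.0 and 15.96 CPM in WT 1 and WT 2. Cdk1, the mitotic kinase, had 17.7 and 22.7 CPM in KO 1 and KO 2, against 11.8 and 13.9 CPM in WT 1 and WT 2. Its log2 change of 0.65 was the highest of the mitosis arm (95% interval 0.02 to 1.28, edgeR adjusted p = 0.0903). Its partner Ccnb1, cyclin B1, had 7.65 and 12.3 CPM in KO 1 and KO 2, against 7.97 and 12.1 CPM in WT 1 and WT 2, and the groups overlapped. Ccnb2 had 13.9 and 15.4 CPM in KO 1 and KO 2, against 12.9 and 13.0 CPM in WT 1 and WT 2, and Ccna2, cyclin A2, had 17.3 and 22.0 CPM in KO 1 and KO 2, against 22.0 and 25.6 CPM in WT 1 and WT 2.

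Mki67 and Top2a act on the chromosomes themselves. Mki67 encodes the Ki-67 protein that coats mitotic chromosomes and is the standard stain for cycling cells. Mki67 had 272 and 224 CPM in KO 1 and KO 2, against 325 and 306 CPM in WT 1 and WT 2, with no overlap between the groups but no call (log2 change -0.35, 95% interval -0.72 to 0.03, edgeR adjusted p = 0.124). With upper quartile scaling its change was -0.54 (edgeR adjusted p = 0.0317). Top2a (chromosome 11, 98992943 to 99024189), the topoisomerase that untangles sister chromatids, fell. It had 51.7 and 61.5 CPM in KO 1 and KO 2, against 89.9 and 103 CPM in WT 1 and WT 2 (log2 change -0.77 ± 0.18 SE, edgeR adjusted p = 0.0096). Top2a did not pass without KO 1 (edgeR adjusted p = 0.0519) or without WT 2 (0.061).

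Of the 6 kinetochore and checkpoint genes, 1 fell (16.7%, against 20.2% of all tested genes). Bub1b (chromosome 2, 118598211 to 118641591) encodes BUBR1, the checkpoint protein that holds back anaphase until chromosomes are attached. It had 13.5 and 12.6 CPM in KO 1 and KO 2, against 30.5 and 33.7 CPM in WT 1 and WT 2, a log2 change of -1.30 ± 0.23 SE (edgeR adjusted p = 0.00256). It passed under all 11 alternative settings, with changes of -1.50 to -1.22. Its paralog Bub1, a kinase of the same checkpoint, had 6.04 and 8.09 CPM in KO 1 and KO 2, against 4.12 and 8.77 CPM in WT 1 and WT 2 (log2 change 0.12, 95% interval -0.89 to 1.13), so the groups overlapped. Ttk (MPS1 kinase) had the fewest counts of the members, 4 and 14 counts in KO 1 and KO 2, against 7 and 13 in WT 1 and WT 2. Ndc80 and Cenpe, which attach kinetochores to microtubules, and Cenpf had log2 changes between -0.24 and -0.04 and did not pass. Cenpe had 23.1 and 27.03 CPM in KO 1 and KO 2, against 23.4 and 28.1 CPM in WT 1 and WT 2.

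Of the spindle and cytokinesis genes, 2 of 7 fell (28.6%, against 20.2% of all tested genes). Kif11 (chromosome 19, 37376403 to 37421859), the kinesin that pushes spindle poles apart, had 11.7 and 16.2 CPM in KO 1 and KO 2, against 31.3 and 26.97 CPM in WT 1 and WT 2 (log2 change -1.06 ± 0.26 SE, edgeR adjusted p = 0.0118). Nusap1 (chromosome 2, 119618298 to 119651244), which stabilises spindle microtubules near chromosomes, had 14.7 and 12.0 CPM in KO 1 and KO 2, against 23.9 and 26.7 CPM in WT 1 and WT 2 (log2 change -0.93 ± 0.25 SE, edgeR adjusted p = 0.0181). In both genes the groups were well apart. Kif11 did not pass without KO 1 or WT 1 (edgeR adjusted p = 0.0701 and 0.0607), and Nusap1 not without KO 2 or WT 2 (0.108 and 0.0959) or with DESeq2 (0.0899). Of the 4 mitosis falls, 2 remained without KO 1 (Bub1b and Nusap1) and 2 without WT 2 (Bub1b and Kif11). The other 5 spindle and cytokinesis genes did not pass. Prc1, which bundles microtubules of the central spindle, had a log2 change of 0.50, and the kinesins Kif23 and Kif20a, which act there in cytokinesis, had 0.32 and 0.11. Prc1 had 16.7 and 18.6 CPM in KO 1 and KO 2, against 10.7 and 14.2 CPM in WT 1 and WT 2, and Kif23 had 23.7 and 27.7 CPM in KO 1 and KO 2, against 20.1 and 21.1 CPM in WT 1 and WT 2. Tpx2, an activator of Aurora A on the spindle, and Hmmr had changes of -0.16 and -0.15.

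Mitotic kinases and the anaphase-promoting complex gave no call. Plk1, a kinase needed from mitotic entry to cytokinesis, had 6.64 and 9.55 CPM in KO 1 and KO 2, against 11.5 and 14.4 CPM in WT 1 and WT 2 (log2 change -0.67, 95% interval -1.44 to 0.09, edgeR adjusted p = 0.14). The groups did not overlap in Plk1. Aurora kinases Aurka and Aurkb and the passenger protein survivin (Birc5) had log2 changes of -0.14, 0.04 and -0.01. Cdc20, which activates the anaphase-promoting complex, had 6.64 and 12.5 CPM in KO 1 and KO 2, against 14.8 and 12.4 CPM in WT 1 and WT 2. Ube2c, the ubiquitin-conjugating enzyme of that complex, had 12.1 and 17.6 CPM in KO 1 and KO 2, against 9.62 and 14.6 CPM in WT 1 and WT 2. Both overlapped between groups.

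**Figure D4:**
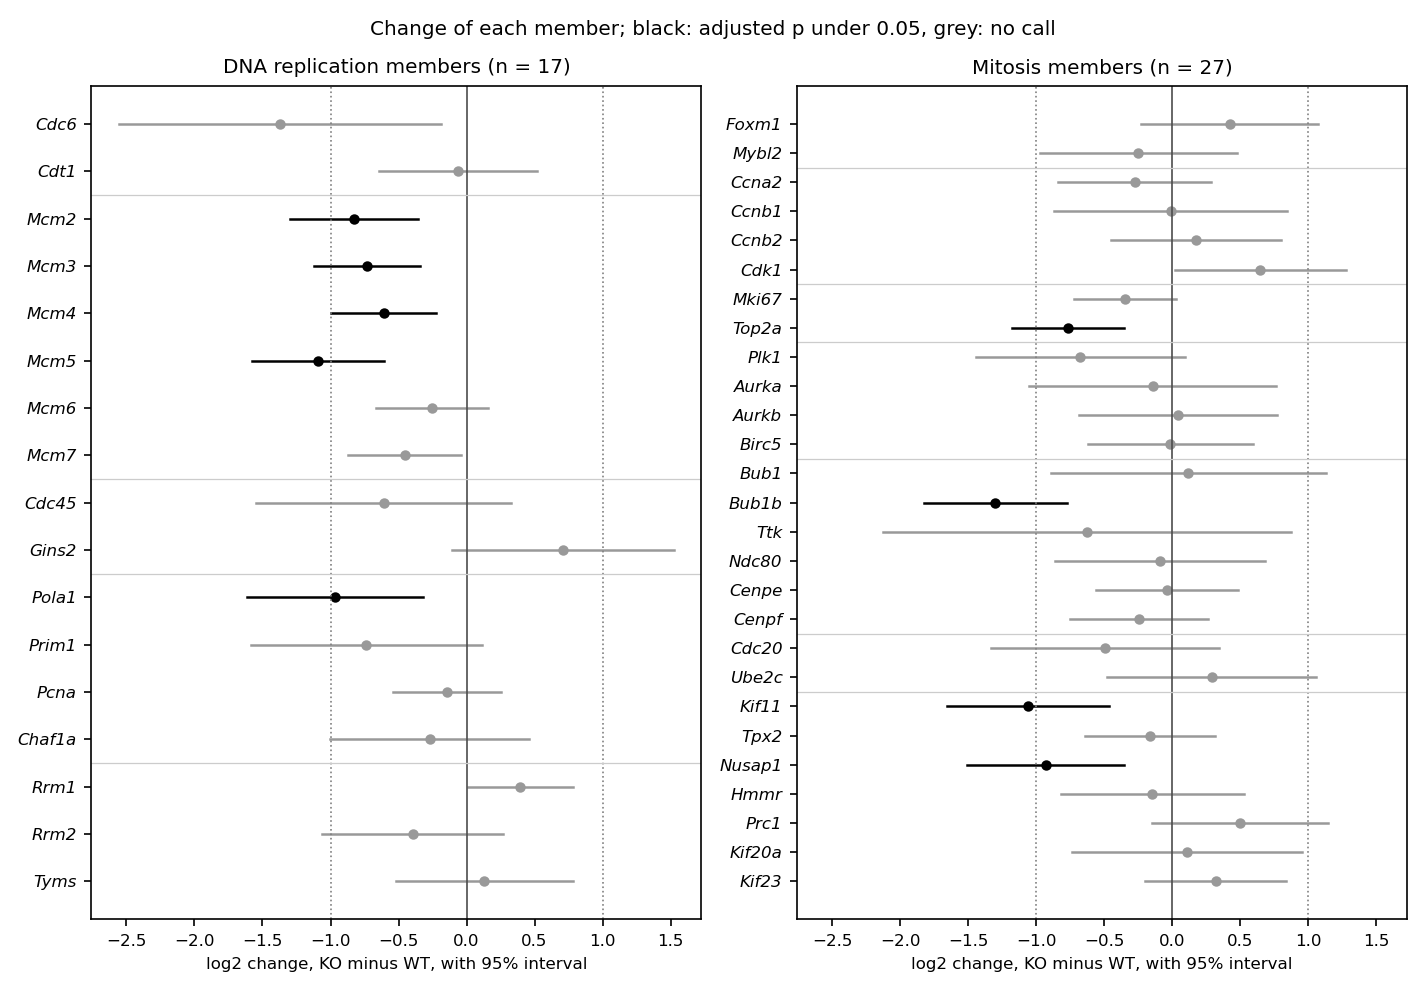
Log2 change, KO minus WT (x axis), with its 95% interval for each replication member (left) and mitosis member (right), ordered by role; black marks the 9 genes that passed, grey the 35 without a call, and dotted lines a 2-fold change. All 9 black intervals lie below 0, and 38 of the 44 intervals end below a 2-fold rise.

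The intervals set what the absence of higher calls can carry. For 38 of 44 members (86.4%) the upper limit of the 95% interval was under a 2-fold rise, against 63.9% of all tested genes. Here too the tested genes were not matched to the members for abundance. The 6 members whose interval reached a 2-fold rise were Gins2, Foxm1, Cdk1, Bub1, Ube2c and Prc1. Members had between 4 and 1386 counts in a library. Some members are less certain for how reads are assigned. Exons of 8 members overlap a tested gene on the opposite strand (Ccna2, Cdc20, Cdc45, Chaf1a, Gins2, Kif20a, Mcm7 and Prc1). The sources used here do not say whether counting used strand. Chaf1a shares the most bases, 4648, followed by Gins2 with 2758 and Kif20a with 1271. Transcripts of Ccnb1, Cdc6, Mcm7, Mki67, Mybl2, Ndc80, Pcna, Rrm2 and Tyms hold stretches at least 95% identical over 200 bases to transcripts of other gene models, which could take or give reads. None of the 9 members that fell is in either list, but Nusap1 and Top2a share exon bases with genes that were not tested. Nusap1 shares 172 bases with Oip5 on the opposite strand. Top2a shares 122 bases with the snoRNA gene Gm23451 on the same strand.

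Promoter letters were compared between the 2 arms. RefSeq start regions (GRCm38.p6, 250 bases before to 50 after the start) were matched to 37 of 44 members by symbol. Mcm4, Gins2, Foxm1, Ccna2, Aurkb, Tpx2 and Kif20a had no entry. The E2F motif was searched as TTCCCGC with the variants TTGGCGC as well as TTCGCGC and also TTGCCGC. The CHR element bound by MuvB was searched as TTTGAA and, alternatively, TTCGAA. The CCAAT box was searched as written, and each motif on both strands. Of 15 replication members, 11 held an E2F motif (73.3%) and 3 a CHR (20%). Of 22 mitosis members, 4 held an E2F motif (18.2%) and 17 a CHR (77.3%). Among all 27025 genes in the table these shares were 10.9% for E2F and 21.7% for CHR, and among 10359 tested genes 18.7% and 16.6%. A CCAAT box stood in 30 of 37 members (81.1%), against 41.1% of all genes. E2F matches can overlap each other, as 2 do in Mcm5, and a match is a description of letters, not of binding. Only these exact letters were found, so sites spelled otherwise were missed in both arms. The nearest RefSeq start lay 350 bases from the gene model start in Cdc6 and 539 in Mcm7.

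Of the 8 members that fell and had an entry, 3 held an E2F motif (37.5%) and 4 a CHR (50%), and of the 29 without a call, 12 held an E2F motif (41.4%) and 16 a CHR (55.2%). The 200 bases before the RefSeq start are shown for 2 replication members that fell (Mcm5, chr8:75109309-75109508, plus strand, and Pola1, chrX:93632156-93632355, minus strand), 2 mitosis members that fell (Top2a, chr11:99024190-99024389, minus strand, and Kif11, chr19:37376182-37376381, plus strand) and Cdk1 (chr10:69352913-69353112, minus strand), which did not fall. They are from RefSeq, GRCm38.p6, 5′ to 3′ on the gene's strand, with matches to the E2F, CHR and CCAAT letters of either strand in capitals.
Mcm5: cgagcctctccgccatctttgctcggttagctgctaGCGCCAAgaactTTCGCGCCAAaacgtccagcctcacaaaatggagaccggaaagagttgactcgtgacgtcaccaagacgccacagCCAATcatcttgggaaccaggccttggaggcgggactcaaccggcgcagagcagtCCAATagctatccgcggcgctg
Pola1: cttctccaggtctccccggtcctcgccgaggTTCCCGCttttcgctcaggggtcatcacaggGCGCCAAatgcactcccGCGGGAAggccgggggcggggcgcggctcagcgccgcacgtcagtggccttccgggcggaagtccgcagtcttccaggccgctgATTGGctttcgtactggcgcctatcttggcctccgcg
Top2a: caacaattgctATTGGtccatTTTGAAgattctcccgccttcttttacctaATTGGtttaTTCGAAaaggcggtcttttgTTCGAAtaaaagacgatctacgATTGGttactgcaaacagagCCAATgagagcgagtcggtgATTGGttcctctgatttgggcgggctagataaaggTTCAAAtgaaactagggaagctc
Kif11: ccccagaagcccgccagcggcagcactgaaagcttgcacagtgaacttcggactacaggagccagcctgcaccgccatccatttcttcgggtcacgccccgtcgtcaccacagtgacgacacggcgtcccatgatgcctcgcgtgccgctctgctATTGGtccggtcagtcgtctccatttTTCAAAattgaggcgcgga
Cdk1: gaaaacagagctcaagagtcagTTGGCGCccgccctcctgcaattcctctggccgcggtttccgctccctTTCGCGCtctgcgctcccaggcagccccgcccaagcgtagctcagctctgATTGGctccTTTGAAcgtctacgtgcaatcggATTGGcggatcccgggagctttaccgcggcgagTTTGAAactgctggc
Within these 200 bases Mcm5 and Pola1 held 3 E2F matches each and no CHR match. Top2a held 4 CHR and 5 CCAAT matches, Kif11 held 1 of each, and neither held an E2F match. Cdk1 held 2 matches of each kind.

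Other genes of the same processes were examined as lists that do not share members with the 44. Of 48 tested other replication genes, 15 fell (31.2%, against 20.2% of all tested genes) and 1 rose, with a median log2 change of -0.58. Wdhd1, a scaffold that ties the polymerase to the helicase, had 3.42 and 5.18 CPM in KO 1 and KO 2, against 21.2 and 15.7 CPM in WT 1 and WT 2 (log2 change -2.08, edgeR adjusted p = 0.00217). Pold1, the catalytic subunit of the lagging-strand polymerase, had 11.3 and 13.3 CPM in KO 1 and KO 2, against 40.1 and 35.3 CPM in WT 1 and WT 2 (log2 change -1.61, edgeR adjusted p = 0.000891). The other 13 that fell were the clamp loader subunits Rfc1 and Rfc2, the single-strand binding subunits Rpa1 and Rpa2, the polymerase subunits Pold2 and Pole4, the ligase Lig1, the fork protection and checkpoint genes Timeless and Clspn, the origin recognition subunit Orc5, the kinase Cdc7, the DNA methyltransferase Dnmt1 and the chromatin factor Atad2. The gene that rose was Dbf4, the activating subunit of the CDC7 kinase, with 32.4 and 36.1 CPM in KO 1 and KO 2, against 23.1 and 20.7 CPM in WT 1 and WT 2 (log2 change 0.65, edgeR adjusted p = 0.0388). Dbf4 was not called with any 1 library left out. DESeq2 called 8 of 50 other replication genes lower and 0 higher, and 1 of the 50 had no adjusted p. Of all its tested genes it called 13.0% lower and 15.8% higher. Without KO 1 the median log2 change of the other replication genes was -0.54 in edgeR.

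Of 71 other mitosis genes tested, 11 fell (15.5%) and 4 rose (5.63%), both shares below the 20.2% and 22.0% of all tested genes, and the median was -0.12. Cdc25b, the phosphatase that starts CDK1 activation, had 7.85 and 9.06 CPM in KO 1 and KO 2, against 33.3 and 28.5 CPM in WT 1 and WT 2 (log2 change -1.86, edgeR adjusted p = 0.00071), and Kif14, a cytokinesis kinesin, had 3.42 and 3.24 CPM in KO 1 and KO 2, against 8.24 and 15.1 CPM in WT 1 and WT 2 (-1.81, edgeR adjusted p = 0.00922). The genes that rose included Psrc1, a microtubule-binding protein that is also a p53-regulated gene, with 10.7 and 16.3 CPM in KO 1 and KO 2, against 2.20 and 2.47 CPM in WT 1 and WT 2 (log2 change 2.52, edgeR adjusted p = 0.0017). Anln, the actin-binding scaffold of the cleavage furrow, had 20.3 and 27.5 CPM in KO 1 and KO 2, against 7.15 and 7.19 CPM in WT 1 and WT 2 (1.74, edgeR adjusted p = 0.00206). The others that rose were Tubb4b, a tubulin, and Lmnb1, a nuclear lamin. Falls numbered 6 without KO 1, 5 without KO 2, 6 without WT 2 and 6 with DESeq2. Kif14 was lost without KO 1, KO 2 or WT 2, and Lmnb1 without KO 2, WT 1 or WT 2.

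Of 23 tested genes that control this transcription programme, 3 fell (13.0%) and 2 rose (8.70%), both shares below the 20.2% and 22.0% of all tested genes. E2f2 had 3.02 and 7.28 CPM in KO 1 and KO 2, against 15.4 and 16.4 CPM in WT 1 and WT 2 (log2 change -1.60, edgeR adjusted p = 0.0155), and was lost without KO 1. Rbl1 (p107), a pocket protein that restrains E2F, had 21.9 and 21.5 CPM in KO 1 and KO 2, against 37.1 and 44.3 CPM in WT 1 and WT 2 (log2 change -0.91, edgeR adjusted p = 0.00952), and was lost without WT 2. The third fall was Rbl2 (p130), a pocket protein of resting cells, which was lost without KO 2. E2f3 had 22.5 and 19.7 CPM in KO 1 and KO 2, against 9.07 and 7.42 CPM in WT 1 and WT 2 (log2 change 1.36, edgeR adjusted p = 0.00574), and Lin54, the DNA-binding subunit of MuvB that contacts the CHR, had 41.7 and 36.9 CPM in KO 1 and KO 2, against 15.9 and 20.2 CPM in WT 1 and WT 2 (1.11, edgeR adjusted p = 0.00506). Of 70 replication-dependent histone gene models, many of them near-identical copies whose counts are uncertain, 5 were tested. Hist1h1c rose, with 59.0 and 61.5 CPM in KO 1 and KO 2, against 29.1 and 34.6 CPM in WT 1 and WT 2 (log2 change 0.92, edgeR adjusted p = 0.00604). Hist2h2be fell (log2 change -1.47, edgeR adjusted p = 0.0481) and was lost without any 1 library.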

How the data were processed

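Total RNA came from easy-BLUE extraction and libraries from the SMARTer Stranded kit, per the labels' protocols. The authors deposited raw whole-number counts per gene model for each library. TopHat, edgeR and mm10 are named in the submitters' processing notes, without versions or roles. The sources used here name no counting program, annotation or use of strand. That replicates came from separate mice is not stated, and p-values may then reflect technical spread only.

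Samples were grouped by the genotype in the labels. The 44 members and all further lists were chosen with earlier results of these data known, so no list was tested as a set. Counts of all genes were filtered with edgeR's filterByExpr (minimum count 10), scaled with TMM and fitted with the robust quasi-likelihood test (edgeR 4.0.16, R 4.3.3, 2 residual degrees of freedom) on genotype alone. P-values were adjusted by Benjamini-Hochberg over 13990 genes, with a threshold of 0.05. CPM are TMM-scaled. The 95% intervals use the standard error from the F statistic. DESeq2 1.42.0, other scalings, no filter, a replicate block and leaving out each library were alternatives. The procedure was tested on simulated data.

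Values in every library are given for each member that passed, for standard readouts and for the extreme members of each arm, and for further members so that each is accounted for. Of each further list of cell cycle or histone genes, up to 2 of the largest rises and up to 2 of the largest falls among called genes are described. Their values in every library are given, except for Hist2h2be. Other genes named without values were chosen after their results were seen. A count of 3 corresponds to 0.486 to 0.824 CPM, and counting error alone sets that floor.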

Additional observations from a re-analysis of the deposited data

How the results depend on the processing

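Of the 44 members, 0 were called higher under any of the 11 alternatives. The replication falls numbered 3 with DESeq2 and 1 to 5 with 1 library left out, and the mitosis falls 2 to 3 with 1 library left out. Mcm5 and Bub1b passed in 11 of 11 alternatives, Mcm2, Mcm3, Top2a and Kif11 in 9, Nusap1 in 8, and Mcm4 and Pola1 in 7. With upper quartile scaling the replication median was -0.65 and the summed ratios, KO over WT, were 0.658 for replication and 0.711 for mitosis; with library size only the mitosis ratio was 0.838. With 1 library left out these ratios ran over 0.718 to 0.794 for replication and 0.798 to 0.832 for mitosis. Upper quartile scaling called 3594 genes lower and 2339 higher, and also called Cdc6, Mcm7 and Mki67 lower. The cause was not tested. A library left alone in its group was assumed to vary like the other group.

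Falls among other replication genes numbered 8 with DESeq2 and 8 to 12 with 1 library left out. Rises there numbered 0 with upper quartile scaling, 2 with no filter, 0 with DESeq2, 3 with the replicate block and 0 to 2 with 1 library left out. Falls among other mitosis genes numbered 6 with DESeq2 and 5 to 8 with 1 library left out. The 1 histone fall became 0 with library size only, with no filter, with DESeq2, with the replicate block and with any 1 library left out.

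Same-numbered libraries are only 2 pairs, and nothing says that they share a source; their deviations from the group means correlated at 0.0355. With the replicate block, 6 replication members (Cdc6 added, adjusted p = 0.048 in edgeR) and 4 mitosis members were lower, of 3190 lower and 3466 higher in all, and Birc5 stood at 0.0056.

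Some members without a call changed sign between settings, on the log2 scale. With upper quartile scaling Tyms was -0.065, Ccnb2 -0.023, Aurkb -0.15, Bub1 -0.077 and Kif20a -0.089. With library size only Ccnb1 was 0.047, Birc5 0.037 and Cenpe 0.011. With no filter Cdt1 was 0.014, Ccnb1 0.070, Birc5 0.066 and Cenpe 0.041. With DESeq2 Ccnb1 was 0.028, Birc5 0.031 and Cenpe 0.0045. With 1 library left out Cdt1 ran over -0.26 to 0.14, Pcna -0.26 to 0.014, Chaf1a -0.58 to 0.12, Mybl2 -0.47 to 0.056, Ccnb1 -0.36 to 0.34, Aurka -0.44 to 0.12, Aurkb -0.012 to 0.14, Birc5 -0.24 to 0.29, Bub1 -0.29 to 0.78, Ndc80 -0.34 to 0.21, Cenpe -0.15 to 0.11 and Kif20a -0.088 to 0.33.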
